A study of Mus musculus with 32 samples.

Results

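Cortical neurons exposed for 6 h to either of a pair of synthetic extracellular microRNAs were compared directly, miR-92a-1-5p against miR-124-5p. The comparison covers 8 of the 32 RNA-seq libraries of the series, 4 for each miRNA, and its members are all libraries that GEO's labels assign to these miRNAs at 6 h. All cells were wild-type C57BL/6 mouse primary neurons, prepared from late embryonic forebrains. Both miRNAs were added to the medium as 5′-phosphorylated phosphorothioate oligoribonucleotides at the same concentration, and the remaining 6 h libraries came from untreated neurons (4) and from neurons given a mutant control oligoribonucleotide termed Mut.oligo (4). The untreated and Mut.oligo libraries lent their spread to the statistical model. Without experiment batch in the model, they do not enter the fold change between the miRNAs. With batch in the model, those that share a batch with a miRNA library also bear on it. The labels call the samples biological replicates without saying whether each came from its own litter. The cultures are primary and mixed: RNA from glia is present beside that of neurons, and in bulk RNA fewer cells of a type and less RNA per cell cannot be told apart.

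MicroRNAs are short RNAs that, inside cells, guide Argonaute proteins to mRNAs carrying a match to bases 2 to 8 of the miRNA, the seed. Outside cells, some of them can instead act as ligands of Toll-like receptor 7 (TLR7), an endosomal receptor for single-stranded RNA that signals through the adaptor MyD88 to NF-κB and interferon regulatory factors and induces cytokine genes. In the brain, TLR7 is best known from microglia, the resident macrophages, and it is also present in neurons. The comparison between the miRNAs asks whether the early transcriptional response depends on which miRNA is given.

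The sequence of miR-92a-1-5p is shown because its seed defines the sites that were searched for in the 3′ untranslated regions, with the seed in capitals (RefSeq, GRCm38.p6):
miR-92a-1-5p: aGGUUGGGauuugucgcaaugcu
It is encoded at chr14:115044437-115044459 on the plus strand, within an exon of the long non-coding host gene *Mir17hg* (chr14:115042879-115046727). Of its 23 bases, 16 are G or U. miR-124-5p is named only.

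The 8 libraries held 27379790 to 73626029 counts assigned to genes. The miR-92a-1-5p libraries were on average 1.46 times as deep as the miR-124-5p libraries, a difference that did not pass 0.05 (two-sided exact permutation test, p = 0.114, n = 4 and 4, with 0.0286 the smallest p this design allows). At such depths 3 counts correspond to 0.0407 to 0.110 CPM, the count of a gene scaled to the same total in every library, below which a gene cannot be told from absent. The labels also give an experiment batch. The miRNAs share 2 of the 7 batches of 6 h: miR-92a-1-5p replicate 1 shares one, the first shared batch below, with miR-124-5p replicate 4, and miR-92a-1-5p replicate 3 shares the second with miR-124-5p replicate 1. Over 9636 genes with a mean log2 CPM, over the 16 libraries of 6 h, above that of 10 CPM, the root-mean-square difference in log2 CPM was 0.0928 and 0.114 within the same-batch pairs of unlike miRNAs. Between 2 libraries of the same miRNA it ranged from 0.144 to 0.233 (12 pairs). Between libraries of unlike miRNAs and unlike batches it ranged from 0.122 to 0.236 (14 pairs). The same-batch pairs were thus closer to each other than any 2 libraries given the same miRNA. They were also closer than any pair of unlike miRNA and batch. For this reason values with the batch in the model, or within the shared batches, are set beside the values without it. With batch as a term, miR-124-5p replicate 3, the only 6 h library of its batch, has no influence on a fold change.

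No gene passed the threshold for a difference between the miRNAs. In edgeR's quasi-likelihood test of 18755 genes, 0 were higher and 0 were lower after miR-92a-1-5p, where a call required a log2 fold change beyond 0.5 together with a p under 0.05 after Benjamini-Hochberg adjustment (0% and 0% of the genes tested), and the smallest adjusted p was 1.00. At an unadjusted p under 0.05, 413 genes stood out (2.2%), 209 with a higher (1.11%) and 204 with a lower level (1.09%), where 5% would be reached by uniformly spread p-values. With experiment batch as a covariate, the counts remained 0 and 0, while 982 genes (5.24%) had an unadjusted p under 0.05 and the smallest adjusted p was 0.291. DESeq2 called 0 genes without the batch term (343 at an unadjusted p under 0.05). With it, DESeq2 called 1 gene (339 at an unadjusted p under 0.05), the non-coding *Gm26917*, which was lower (log2 fold change −0.57, adjusted p = 0.0231).

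The intervals around the fold changes show how much of a difference could have been missed. Among the 9633 genes at or above 10 CPM, the 95% interval of the log2 fold change lay wholly between −0.5 and 0.5 for 9317 genes (96.7%), and its median half-width was 0.13. For 3840 genes between 1 and 10 CPM, the interval lay between −0.5 and 0.5 in 53.7%, and between −1 and 1 in 95.3%. Below 1 CPM, where most cytokine genes are found in these cultures, it lay between −1 and 1 in only 30.3% of 5282 genes.

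**Figure D1:**
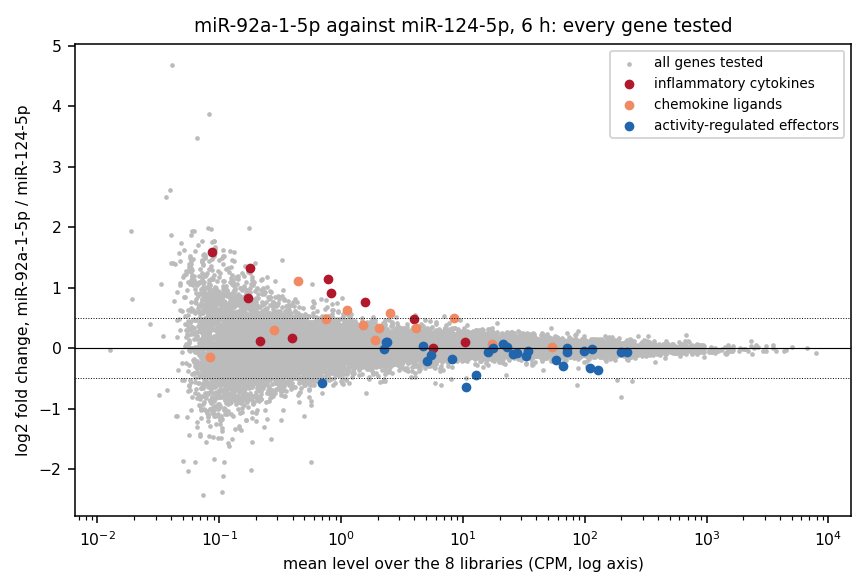
Log2 fold change of miR-92a-1-5p over miR-124-5p (vertical axis) against the mean level over the 8 libraries in CPM (horizontal log axis) for the 18755 genes tested (grey), with inflammatory cytokines, chemokine ligands and activity-regulated effectors coloured. Dotted lines mark −0.5 and 0.5; the cytokines lie at or above 0 but mostly below 10 CPM, where fold changes scatter widely, and 0 genes passed the threshold.

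Inflammatory cytokine genes were the list with the highest median, and none of its members passed the adjusted threshold. Of 14 listed genes, 11 were expressed enough to be tested, while *Csf2*, *Nos2* and *Osm* were not. Besides cytokines the list holds the inflammatory enzyme genes *Ptgs2* and *Nos2*. The log2 fold change was above 0 in 11 of 11 (51.2% of all genes tested), and with batch in 10 of 11 (51.3% of all genes). The median was 0.76, the value of *Ptgs2* itself, against 0.00 over all genes. An unadjusted p under 0.05 with a higher level was found for 4 of 11 (1.11% of all genes), and for 6 of 11 with batch as a covariate (2.67% of all genes). The list median was 0.88 with the batch term and 0.66 in the first shared batch, each again the value of *Ptgs2*. In the second shared batch it was 0.27. In both shared batches, 7 members had their higher level after miR-92a-1-5p (26.1% of all genes). *Ptgs2* is among the members in each of these counts. The cytokines named by the study at 6 h (*Il1a* and *Tnf*) were picked on these libraries and are no independent evidence of a direction.

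*Il1b* encodes the secreted cytokine interleukin-1β. Its level was 1.13, 1.11, 0.928 and 1.20 CPM in the miR-92a-1-5p libraries and 0.767, 0.429, 0.625 and 0.486 CPM in the miR-124-5p libraries. The groups did not overlap, which held for 197 of all genes in this direction (1.05%) and for 1 other cytokine, the leukemia inhibitory factor gene *Lif* (mean 0.219 against 0.123 CPM, log2 fold change 0.83), named here after its values were seen. The log2 fold change was 0.91 ± 0.30 (SE; 95% interval 0.29 to 1.54; edgeR adjusted p = 1.00). Untreated neurons held 0.195 to 0.531 CPM and neurons given Mut.oligo 0.223 to 0.608 CPM, so that all 4 miR-92a-1-5p libraries were above every untreated and Mut.oligo library. In the same-batch pairs, the difference in log2 CPM was 1.13 and 0.27.

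*Il1a*, which codes for interleukin-1α, was at 0.687, 1.52, 1.29 and 0.761 CPM after miR-92a-1-5p and at 0.840, 0.286, 0.450 and 0.358 CPM after miR-124-5p. The groups overlapped through miR-124-5p replicate 1 and miR-92a-1-5p replicates 1 and 4. For *Il1a* the log2 fold change was 1.15 ± 0.36 (95% interval 0.38 to 1.92; edgeR adjusted p = 1.00) and 1.06 ± 0.33 with batch. Its counts were low, 25 to 70 per library after miR-92a-1-5p and 8 to 23 after miR-124-5p.

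*Ptgs2*, the inducible cyclooxygenase of prostaglandin synthesis, was at 1.98, 2.31, 2.10 and 1.51 CPM after miR-92a-1-5p and at 1.57, 0.787, 1.05 and 1.23 CPM after miR-124-5p. All but miR-92a-1-5p replicate 4 exceeded the highest miR-124-5p library. On the log2 scale the fold change was 0.76 ± 0.26 (95% interval 0.20 to 1.32; edgeR adjusted p = 1.00). *Il6* was barely detected, with 2 to 15 counts per library after miR-92a-1-5p and 0 to 3 after miR-124-5p, at or near the limit of detection. Its log2 fold change of 1.59 ± 0.74 (edgeR adjusted p = 1.00) rests on those few counts, and the untreated libraries spanned 0 to 0.212 CPM, the whole range of both miRNAs.

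*Tnf*, the gene of tumor necrosis factor, was at 3.63, 4.11, 6.01 and 4.63 CPM after miR-92a-1-5p and at 5.11, 2.00, 3.62 and 2.35 CPM after miR-124-5p. Both groups reached their highest *Tnf* level in the library of the second shared batch. For *Tnf* the log2 fold change was 0.49 ± 0.31 (95% interval −0.17 to 1.14) and 0.70 ± 0.22 with batch (edgeR adjusted p = 0.946). Within the shared batches the difference in log2 CPM was 0.61 and 0.24. The untreated libraries held 1.46 to 3.52 CPM of *Tnf*.

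**Figure D2:**
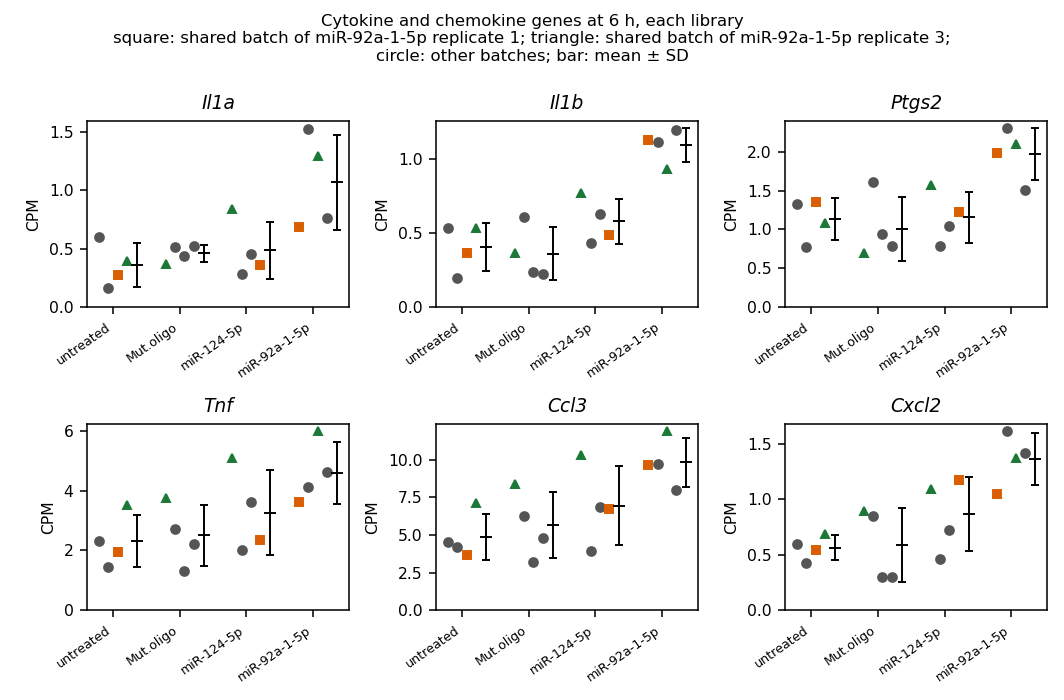
Level in CPM (vertical axis, from 0) of *Il1a*, *Il1b*, *Ptgs2*, *Tnf*, *Ccl3* and *Cxcl2* in each 6 h library by group, with mean ± SD at the right of each group of 4; squares and triangles mark the 2 batches that the miRNAs share. For *Il1b* the 4 miR-92a-1-5p libraries lie above the 4 miR-124-5p libraries; for the other 5 genes the groups overlap.

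Chemokine ligands, which attract leukocytes, showed a smaller shift, with 0 members past the threshold. Of 15 listed genes, 13 were tested, and 12 of them had a log2 fold change above 0 (51.2% of all genes). The median was 0.34, and 0.44 with batch. No member had an unadjusted p under 0.05 without the batch term (1.11% of all genes), and 3 had one with it (2.67%). *Ccl3*, the macrophage inflammatory protein 1α gene, was at 9.62, 9.71, 11.9 and 8.01 CPM after miR-92a-1-5p and at 10.3, 3.93, 6.85 and 6.70 CPM after miR-124-5p. This gave a log2 fold change of 0.49 ± 0.27 (95% interval −0.08 to 1.07) and 0.61 ± 0.20 with batch. Only miR-124-5p replicate 1 reached the range of the other miRNA.

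*Cxcl2*, a neutrophil-attracting chemokine gene, was at 1.04, 1.61, 1.37 and 1.41 CPM after miR-92a-1-5p and at 1.10, 0.465, 0.725 and 1.18 CPM after miR-124-5p. *Cxcl2* had a log2 fold change of 0.64 ± 0.32 (95% interval −0.03 to 1.31), and within the shared batches the differences pointed in opposite directions, −0.17 and 0.31. *Ccl9* differed by 0.34 ± 0.25 (95% interval −0.19 to 0.87) and *Ccl5* by 0.58 ± 0.40 (95% interval −0.26 to 1.42) on the log2 scale. For these 4 chemokine genes the intervals without batch contained 0. With batch the *Cxcl2* interval still did (−0.20 to 1.25). Those of *Ccl3* (0.18 to 1.03), *Ccl9* (0.17 to 0.67) and *Ccl5* (0.0062 to 1.22) lay above 0, each with an edgeR adjusted p of 0.946.

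Microglia markers were present in all 8 libraries at a low level. The summed level of the 22 listed markers was 65.3 to 92.6 CPM after miR-92a-1-5p and 57.3 to 93.4 CPM after miR-124-5p, against 61.4 to 85.05 CPM in untreated neurons. Of 21 markers tested, 15 had a log2 fold change above 0 (51.2% of all genes), with a median of 0.10. None had an unadjusted p under 0.05 with a higher level (1.11% of all genes), and with batch 2 had one, *Cybb* and *C1qa* (2.67% of all genes). Only *Siglech* of the list was not tested. The complement gene *C1qa* had a log2 fold change of 0.24 ± 0.36 and *C1qb* of 0.23 ± 0.30. The chemokine receptor gene *Cx3cr1*, which marks resting microglia, lay at −0.60 ± 0.37. The listed markers *Gpr34* (1.12 ± 0.73) and *P2ry12* (0.88 ± 0.80) lay above 0, on at most 13 counts in any of the 8 libraries. *Cybb*, which encodes a phagocyte NADPH oxidase subunit, was at 7.18, 8.25, 9.16 and 2.91 CPM after miR-92a-1-5p and at 7.12, 5.62, 3.15 and 4.55 CPM after miR-124-5p. The *Cybb* levels after miR-124-5p lay wholly within the range after miR-92a-1-5p. The log2 fold change was 0.43 ± 0.34 (95% interval −0.30 to 1.15), and 0.53 ± 0.13 with batch (edgeR adjusted p = 0.946). Summed microglia markers overlapped between the miRNAs, and the part of microglia in the cytokine levels was not tested.

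Of the TLR pathway itself, 0 genes passed the threshold. All 23 receptors and adaptors listed were tested, none had an unadjusted p under 0.05 without batch and 3 had one with it, all higher (2.67% of all genes). The median log2 fold change was 0.01 (0.04 with batch). The interval lay within −1 and 1 for 18 of the 23. *Tlr7* was at 0.495, 0.871, 0.757 and 0.570 CPM after miR-92a-1-5p and at 0.804, 0.680, 0.350 and 0.716 CPM after miR-124-5p. The groups overlapped, with a difference of 0.09 ± 0.27 (95% interval −0.49 to 0.67), and −0.05 ± 0.28 with batch, on the log2 scale. *Unc93b1*, the chaperone that carries endosomal TLRs to their compartment, was at 0.32 ± 0.28, and at 0.59 ± 0.16 with batch (edgeR adjusted p = 0.946). Without batch the list ranged from the adaptor gene *Ticam2* (−0.62 ± 0.43) to the inhibitory kinase gene *Irak3* (0.65 ± 0.41). *Tirap*, a bridging adaptor gene, lay at 0.46 ± 0.23, and the intervals of all 3 contained 0 without batch. With batch *Irak3* lay at 0.65 ± 0.30 (0.02 to 1.28) and *Tirap* at 0.46 ± 0.20 (0.02 to 0.89), each with an edgeR adjusted p of 0.946. The *Ticam2* interval with batch still contained 0 (−1.51 to 0.54).

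The genes that the study measured by RT-qPCR form a list of their own. All 10 were tested here, and the list overlaps the cytokine, chemokine and TLR lists. Apart from *Il1a* and *Il6*, both higher (1.11% of all genes), none had an unadjusted p under 0.05 without batch. With batch *Tnf* was added to these, also with a higher level (2.67% of all genes). *Myd88*, the adaptor of TLR7, was at 2.97, 3.66, 3.69 and 3.80 CPM after miR-92a-1-5p and at 3.10, 2.79, 4.07 and 2.92 CPM after miR-124-5p. *Myd88* had a log2 fold change of 0.12 ± 0.14 (95% interval −0.18 to 0.42). The kinase gene *Irak4* lay at 0.19 ± 0.34 (−0.52 to 0.91), the NF-κB subunit gene *Rela* at −0.02 ± 0.06 (−0.14 to 0.10) and *Sarm1*, an adaptor that degrades NAD in injured axons, at −0.03 ± 0.07 (−0.18 to 0.11). For *Myd88*, *Rela* and *Sarm1* a difference beyond 0.5 is outside the interval without batch. With batch this held for *Rela* (−0.20 to 0.04) and *Sarm1* (−0.05 to 0.14). The *Myd88* interval with batch, −0.02 to 0.55 around 0.26 ± 0.13, reached beyond 0.5. *Irf7*, the interferon regulatory factor, lay at −0.02 ± 0.31 (−0.68 to 0.63) and *Ticam1*, the TLR3 adaptor, at 0.05 ± 0.18 (−0.33 to 0.43).

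Among the 19 NF-κB subunits and feedback genes, 13 had a log2 fold change above 0 (51.2% of all genes) and the median was 0.12 (0.13 with batch). None had an unadjusted p under 0.05 without batch, and with batch 1 had one with a higher level, *Nfkbiz* (2.67% of all genes). *Tnfaip3*, the gene of the ubiquitin-editing inhibitor A20, was at 5.42, 4.64, 5.15 and 4.48 CPM after miR-92a-1-5p and at 5.19, 3.22, 3.67 and 4.07 CPM after miR-124-5p (log2 fold change 0.28 ± 0.14, 95% interval −0.03 to 0.58). *Nfkbiz* lay at 0.40 ± 0.25, *Relb* at 0.19 ± 0.14 and *Nfkbia*, which encodes the inhibitor IκBα, at 0.12 ± 0.10. The 20 interferon-stimulated genes tested had a median of 0.09, and 0.03 with batch, with 0 members under an unadjusted p of 0.05. Their first member by p was the antiviral gene *Rsad2* (0.82 ± 0.44, and 0.26 ± 0.28 with batch). *Ifnb1*, the interferon-β gene, had 0 counts in all 8 libraries.

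**Figure D3:**
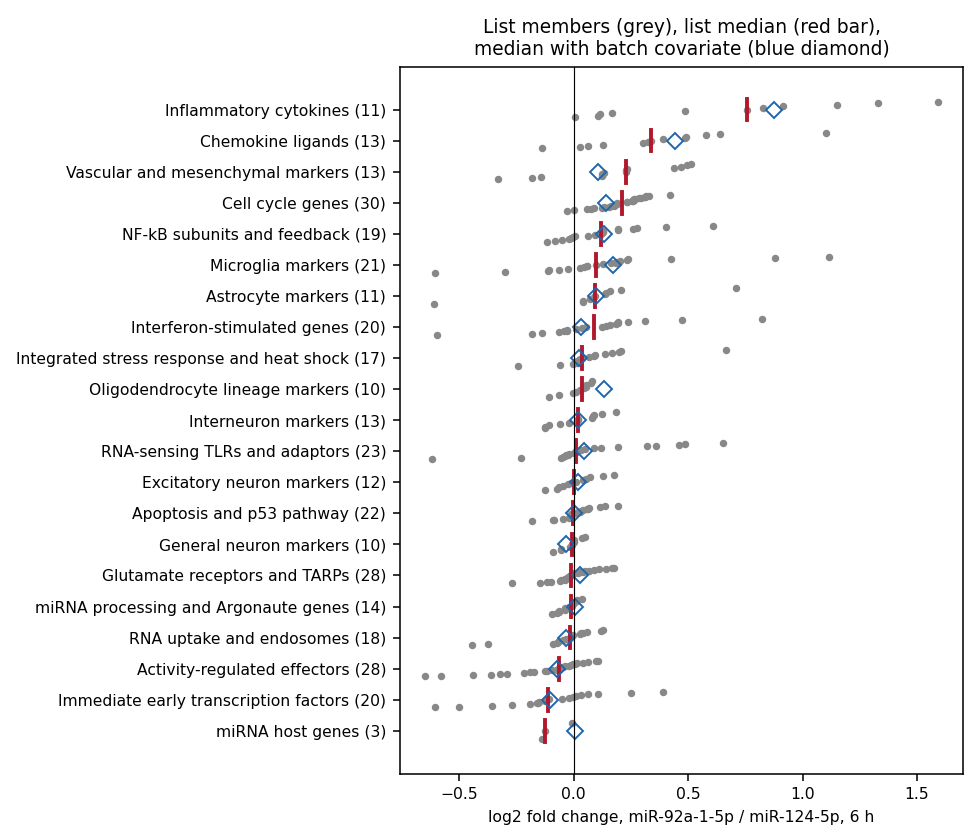
Log2 fold change of miR-92a-1-5p over miR-124-5p at 6 h (horizontal axis) for the members of each gene list (grey points, number tested in parentheses), with the list median (red bar) and the median with experiment batch as a covariate (blue diamond). Inflammatory cytokines have the highest median (0.76), immediate early transcription factors and activity-regulated effectors have medians below 0, and 0 members of any list passed the threshold.

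Genes that neuronal activity induces had mostly negative fold changes, again with 0 members past the threshold. Of 28 activity-regulated effectors, 22 had a log2 fold change below 0 (48.8% of all genes), with a median of −0.06. With batch it was 26 of 28 (48.7% of all genes), 7 of them with an unadjusted p under 0.05 and a lower level (2.56% of all genes), and the median was −0.08. Within the shared batches the effector medians were 0.01 and −0.10, with 10 of 28 members lower in both batches (24.4% of all genes). Of 20 immediate early transcription factors, 14 lay below 0 (48.8% of all genes), with a median of −0.11. With batch 5 had an unadjusted p under 0.05 and a lower level (2.56% of all genes). With a higher level 1 had one, *Egr1* (2.67% of all genes). In both shared batches 8 were lower (24.4% of all genes) and 3 higher (26.1%). Without batch no member of either list had an unadjusted p under 0.05 (1.09% of all genes in the lower and 1.11% in the higher direction). Both miRNA groups and Mut.oligo also had a median below 0 against untreated neurons for the effectors (−0.21 for Mut.oligo, −0.13 for miR-124-5p and −0.16 for miR-92a-1-5p). These values share the untreated libraries.

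*Fos*, the classical immediate early gene, was at 3.90, 9.40, 5.91 and 7.06 CPM after miR-92a-1-5p and at 7.30, 17.6, 8.90 and 3.63 CPM after miR-124-5p. Its highest and its lowest level of the 8 were both found after miR-124-5p, and the spread there (9.35 ± 5.90 CPM, SD, n = 4) exceeded the difference from miR-92a-1-5p (6.57 ± 2.30 CPM). *Fos* had a log2 fold change of −0.50 ± 0.45 (95% interval −1.46 to 0.46), and within the shared batches it was 0.10 and −0.29. Leaving out 1 library at a time moved it between −0.78 and −0.0011, the latter without miR-124-5p replicate 2. *Npas4*, an activity-dependent transcription factor gene, was at 2.69, 8.66, 4.81 and 4.94 CPM against 5.37, 14.3, 9.02 and 3.45 CPM, with overlapping groups. *Npas4* had a log2 fold change of −0.60 ± 0.46 (−0.17 without miR-124-5p replicate 2), and −0.55 ± 0.16 with batch (edgeR adjusted p = 0.946).

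*Bdnf*, which encodes the neurotrophin that supports synapses and survival, was at 6.21, 7.18, 7.08 and 12.8 CPM after miR-92a-1-5p and at 9.09, 23.4, 13.1 and 6.62 CPM after miR-124-5p. The highest library was replicate 4 after miR-92a-1-5p and replicate 2 after miR-124-5p. *Bdnf* had a log2 fold change of −0.65 ± 0.37 (95% interval −1.43 to 0.13) and −0.77 ± 0.26 with batch (edgeR adjusted p = 0.946). Without miR-124-5p replicate 2 and without batch it was −0.21. *Nr4a2*, an orphan nuclear receptor gene, was at 38.8, 41.9, 39.6 and 39.1 CPM against 40.8, 73.7, 44.4 and 44.2 CPM. Its log2 fold change was −0.36 ± 0.20, and −0.12 without miR-124-5p replicate 2. The transcription factor genes *Egr1* (0.25 ± 0.17) and *Egr2* (0.39 ± 0.26) lay above 0, with intervals that contained 0 without batch. With batch *Egr1* lay at 0.41 ± 0.15 (95% interval 0.09 to 0.72; edgeR adjusted p = 0.946), with 0.27 and 0.07 within the shared batches. *Egr2* lay at 0.35 ± 0.30 with batch, and its interval still contained 0.

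Secreted and signalling effectors gave a similar picture. *Rgs4*, a regulator of G-protein signalling, was at 107, 127, 101 and 115 CPM after miR-92a-1-5p and at 120, 201, 130 and 122 CPM after miR-124-5p. Only miR-92a-1-5p replicate 2 reached into the range of the other miRNA. Its log2 fold change was −0.36 ± 0.22 (95% interval −0.83 to 0.10), and −0.38 ± 0.10 with batch (edgeR adjusted p = 0.946), with −0.19 and −0.24 within the shared batches. *Scg2*, a secretory granule protein gene, was at 91.5, 77.7, 99.9 and 125 CPM against 117, 155, 116 and 101 CPM (−0.32 ± 0.17, and −0.45 ± 0.15 with batch), and *Ptprn*, another granule protein gene, had a log2 fold change of −0.19 ± 0.12. *Adcyap1*, the gene of the neuropeptide PACAP, lay at −0.44 ± 0.33, the neuropeptide precursor gene *Vgf* at −0.29 ± 0.24 and the histone deacetylase gene *Hdac9* at −0.30 ± 0.21. The study named these 3 genes at 6 h on these libraries. The intervals of all 3 contained 0, and with batch their log2 fold changes were −0.44 ± 0.17, −0.36 ± 0.12 and −0.32 ± 0.12. Without miR-124-5p replicate 2 and without batch the log2 fold change was −0.15 for *Rgs4*, −0.18 for *Scg2*, −0.033 for *Adcyap1*, −0.050 for *Vgf* and −0.10 for *Hdac9*.

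**Figure D4:**
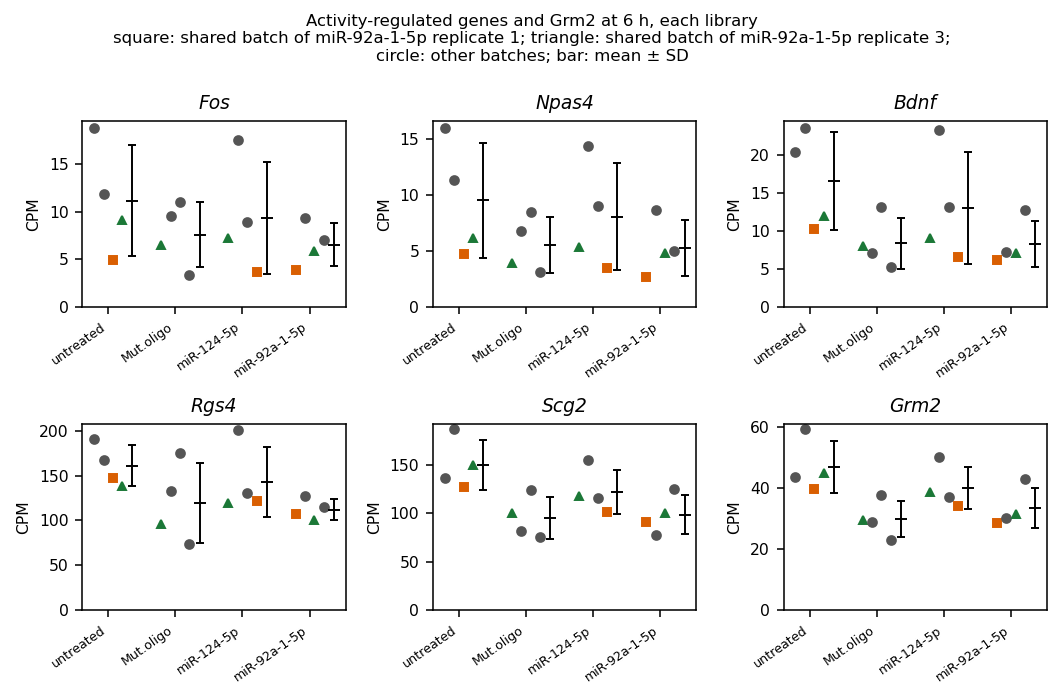
Level in CPM (vertical axis, from 0) of *Fos*, *Npas4*, *Bdnf*, *Rgs4*, *Scg2* and *Grm2* in each 6 h library by group, with mean ± SD; squares and triangles mark the 2 batches that the miRNAs share. Replicate 2 of miR-124-5p is the highest of the 8 libraries given a miRNA in all 6 panels, and the groups overlap in each.

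Glutamate receptor genes were measured precisely and showed no difference past the threshold. All 28 receptors and their TARP partners, which traffic AMPA receptors, were tested, with a median log2 fold change of −0.01 and an interval within −0.5 and 0.5 for 26 of them. None had an unadjusted p under 0.05 without batch. With batch 1 had one with a higher (2.67% of all genes) and 3 with a lower level (2.56% of all genes), and the median was 0.03. *Grm2*, the presynaptic metabotropic receptor 2 gene and the one of this list that the study named besides *Cacng5*, was at 28.6, 30.3, 31.5 and 42.8 CPM after miR-92a-1-5p and at 38.5, 50.1, 37.0 and 34.2 CPM after miR-124-5p. Only miR-92a-1-5p replicate 4 exceeded the lowest miR-124-5p library. For *Grm2* the log2 fold change was −0.27 ± 0.16 (95% interval −0.60 to 0.07), and −0.42 ± 0.10 with batch (edgeR adjusted p = 0.946), with −0.26 and −0.28 within the shared batches. Without miR-124-5p replicate 2 and without batch it was −0.14. Untreated neurons held 39.6 to 59.1 CPM of *Grm2* and neurons given Mut.oligo 23.1 to 37.5 CPM. *Cacng5*, a TARP gene, lay at −0.10 ± 0.16 (−0.44 to 0.24). *Grin1*, the obligatory NMDA receptor subunit gene, lay at −0.12 ± 0.09, the AMPA receptor subunit gene *Gria1* at 0.06 ± 0.05 and the TARP gene *Cacng3* at 0.17 ± 0.14. With batch *Grin1* lay at −0.14 ± 0.05 (edgeR adjusted p = 0.946), with −0.16 and −0.11 within the shared batches.

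The genes with the smallest p in edgeR whose 4 libraries of one miRNA did not overlap those of the other ranged from small differences of well-expressed genes to differences that rest on few counts. Non-overlap was found for 197 genes in the higher direction (1.05%) and for 167 in the lower (0.89%). Since the rule selected the genes on this contrast, their values are a description. In the higher direction, *Serp1*, which stabilizes membrane proteins under endoplasmic reticulum stress, had 80.1, 80.7, 78.5 and 83.4 CPM against 75.2, 74.1, 68.6 and 71.9 CPM, a log2 fold change of 0.15 ± 0.04. The zinc finger genes *Zfp442* and *Zfp518a* lay at 0.46 ± 0.14 and 0.22 ± 0.07. *Clec5a*, a myeloid lectin receptor gene, was at 0.220, 0.479, 0.269 and 0.163 CPM against 0.110, 0.0358, 0.100 and 0.0256 CPM, which is 8 to 22 counts against 1 to 4. The untreated libraries had 0 to 0.133 CPM of *Clec5a* and the Mut.oligo libraries 0.122 to 0.260 CPM.

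*Gm38393* (chr7:59974149-60005064, minus strand, GRCm38) was at 12.4, 9.99, 10.4 and 11.2 CPM after miR-92a-1-5p and at 6.39, 9.87, 7.77 and 7.62 CPM after miR-124-5p (log2 fold change 0.46 ± 0.13). It is annotated as protein-coding and overlaps exons of *Snrpn*, *Snurf* and *Snhg14* on the same strand, so its reads could be split among them and the value is uncertain. *Aspn*, a matrix proteoglycan gene, had 0 counts in all 4 miR-124-5p libraries and 17 counts in all over the miR-92a-1-5p libraries. Only 1 of these counts was in replicate 1. The miR-92a-1-5p levels, 0.0275 to 0.109 CPM, were at or near the limit of detection. Set against a nominal 3 counts over the other group the ratio is 3.87, which takes the 17 counts as exact and is no firm bound. The Mut.oligo libraries held 0.0372 to 0.182 CPM of *Aspn* and the untreated libraries 0 to 0.0332 CPM. *Gm38227* (6 to 15 counts against 1 to 4) and *Gm26771* (4 to 7 counts against 0 or 1) complete the rule in this direction.

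In the lower direction, *Mib2*, a ubiquitin ligase gene of the Notch pathway, was at 79.5, 75.9, 77.2 and 76.5 CPM against 85.5, 86.9, 85.9 and 83.8 CPM, a log2 fold change of −0.16 ± 0.04. *Caly*, which encodes a neuronal endocytosis protein, lay at −0.19 ± 0.06. Both differ by less than the fold threshold of 0.5. *Ackr4*, an atypical chemokine receptor gene, was at 0.357, 0.283, 0.366 and 0.258 CPM against 0.511, 0.823, 0.625 and 0.742 CPM, a log2 fold change of −1.12 ± 0.30 on 13 to 29 counts per library. *Alms1-ps1*, a pseudogene with reads that may belong to its parent *Alms1*, had the smallest p of all genes (0.000191; log2 fold change −2.01 ± 0.42) on 2 to 17 counts. The pseudogene *Gm14303* lay at −0.57 ± 0.17, *C2cd4a* at −1.18 ± 0.35, and *BC046401* and *Gm13483* had at most 7 counts in any of the 8 libraries.

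Apart from *Gm38393*, the genes called under any alternative were 6, mostly non-coding, which are grouped here because of those calls. They were singled out after their values were seen, so that no test is given for them as a group. They did not all divide the libraries alike. *Gm23935* (annotated as a miRNA gene, chr16:11144125-11144181, plus strand) was at 224, 117, 137 and 100 CPM after miR-92a-1-5p and at 289, 191, 190 and 335 CPM after miR-124-5p. Its log2 fold change was −0.81 ± 0.21, and −0.84 ± 0.14 with batch (edgeR adjusted p = 0.291). Replicate 1 of miR-92a-1-5p was in the miR-124-5p range, and replicates 2, 3 and 4 were below all other 6 h libraries, untreated (259 to 300 CPM) and Mut.oligo (199 to 282 CPM) included.

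*Lars2*, the gene of mitochondrial leucyl-tRNA synthetase, showed the same division of libraries, with 315, 150, 197 and 137 CPM against 315, 242, 243 and 360 CPM (−0.55 ± 0.19). *Mir6236* was at 275, 104, 137 and 90.9 CPM against 232, 185, 178 and 268 CPM (−0.52 ± 0.25), and the antisense gene *Gm15564* at 111, 51.7, 67.8 and 44.0 CPM against 110, 87.9, 84.1 and 130 CPM (−0.60 ± 0.21). *Gm26917* (chr17:39843013-39846341, plus strand), which neighbours the annotated rRNA gene *CT010467.1* (chr17:39846353-39848827, minus strand), was at 30.6, 13.6, 16.6 and 15.6 CPM against 26.1, 21.0, 16.6 and 39.1 CPM. *CT010467.1* itself was at 211, 148, 133 and 296 CPM against 246, 154, 154 and 287 CPM and did not separate the groups (−0.11 ± 0.24).

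In the fit without batch, calls in this group depended on 1 library. Without miR-92a-1-5p replicate 1, edgeR called 4 genes lower, *Lars2* (−0.86), *Gm23935* (−1.11), *Gm15564* (−0.94) and *Mir6236* (−0.98), each at an adjusted p of 0.0479 in edgeR. With all 8 libraries the count was 0. In the 4 libraries of the shared batches alone, with batch as a covariate, edgeR called *Gm23935* (−0.82, adjusted p = 0.000924) and *CT010467.1* (−0.66, adjusted p = 0.00339) lower and *Gm38393* higher (0.71, adjusted p = 0.0168), with a pair of libraries per miRNA. *CT010467.1* overlaps the exon of *AY036118* on its strand, so its counts are uncertain.

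**Figure D5:**
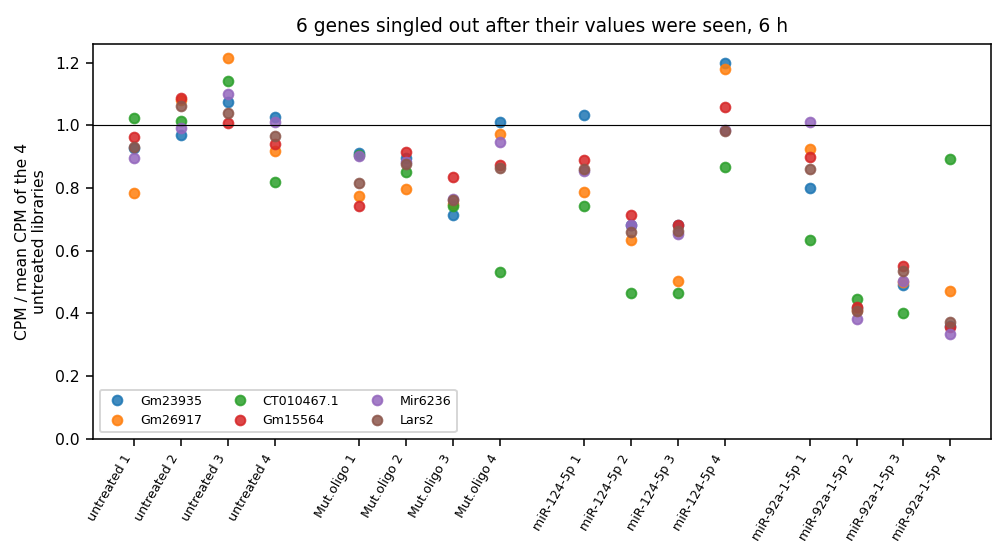
Level of 6 genes in each 6 h library as a ratio to the mean CPM of the 4 untreated libraries (vertical axis, from 0; the line marks 1). Replicates 2, 3 and 4 of miR-92a-1-5p hold the lowest ratios for *Gm23935*, *Lars2*, *Gm15564* and *Mir6236*, while replicate 1 lies with the other groups.

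Of the death, stress and proliferation genes, 0 passed the threshold at 6 h. The 22 genes of apoptosis and the p53 pathway had a median log2 fold change of −0.00, and the interval lay within −0.5 and 0.5 for 19. *Xiap*, the inhibitor of caspases, was the 1 member of 22 with an unadjusted p under 0.05 (1.11% of all genes in the higher direction). The *Xiap* level was 85.6, 80.6, 84.5 and 93.9 CPM after miR-92a-1-5p and 76.4, 79.0, 78.4 and 81.8 CPM after miR-124-5p (0.12 ± 0.04, edgeR adjusted p = 1.00). The pro-apoptotic gene *Bcl2l11* lay at 0.14 ± 0.10. The 17 genes of the integrated stress response and heat shock had a median of 0.04, with *Hmox1*, heme oxygenase 1, at 0.20 ± 0.18 and the chaperone gene *Hspa1a* at −0.24 ± 0.22. Cell cycle genes had a log2 fold change above 0 in 29 of 30 (51.2% of all genes), with a median of 0.21, but 0 had an unadjusted p under 0.05. With batch 28 of 30 lay above 0 (51.3% of all genes), with a median of 0.14 and again 0 under an unadjusted p of 0.05. Within the shared batches the medians were −0.02 and −0.04. *Mcm7*, a replicative helicase gene, lay at 0.15 ± 0.09, and *Pclaf*, a PCNA partner, at 0.42 ± 0.26. Of the 8 libraries, miR-92a-1-5p replicate 4 held the highest *Pclaf* level (30.9 CPM). Untreated replicate 2, of the same batch as that library, held 34.2 CPM.

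The genes that process and load miRNAs were measured precisely. For 14 of 14 processing and Argonaute genes the interval lay within −0.5 and 0.5, and their median was −0.01. *Zswim8*, a ubiquitin ligase adaptor of target-directed miRNA decay, lay at −0.07 ± 0.04 and *Tarbp2*, a Dicer partner gene, at −0.09 ± 0.06. Host genes give no measure of the added oligoribonucleotides but show the endogenous transcripts. *Mir17hg*, the host of miR-92a-1, was at 1.46, 1.09, 1.27 and 1.24 CPM after miR-92a-1-5p and at 0.913, 1.72, 1.65 and 1.15 CPM after miR-124-5p (−0.12 ± 0.30). *Mir124a-1hg* lay at −0.14 ± 0.15 and *Mir124-2hg* at −0.01 ± 0.12. Within both shared batches all 3 host genes had a higher level with miR-92a-1-5p, by 0.12 to 0.46 in log2 CPM, so that the sign of their difference depends on the libraries compared. Of 18 genes of RNA uptake and endosomes, 0 had an unadjusted p under 0.05 without batch, and with batch 1 had one with a higher (2.67% of all genes) and 2 with a lower level (2.56% of all genes). *Sidt1*, a membrane protein gene linked to the transport of RNA, was at 3.52, 3.00, 4.10 and 4.66 CPM against 4.53, 5.90, 4.77 and 4.53 CPM (−0.37 ± 0.21), the endolysosomal nuclease gene *Pld3* lay at −0.09 ± 0.06 and the recycling endosome GTPase gene *Rab11a* at 0.13 ± 0.08. With batch these were −0.55 ± 0.22, −0.11 ± 0.05 and 0.12 ± 0.05, respectively, each with an edgeR adjusted p of 0.946.

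Genes with a seed match of miR-92a-1-5p had nearly the same median fold change as genes without one. The site searched was CCCAACC, the reverse complement of the seed, on the transcript strand in the longest annotated 3′ untranslated region of each gene (GENCODE, GRCm38). It was found in 1571 of 15226 genes tested that have such a region (10.3%), with a median region length of 2263 bases, against 1079 bases in genes without it. The median log2 fold change was −0.00 with and 0.00 without the site, and 51.0% of genes with the site lay below 0 against 47.8% of those without. An unadjusted p under 0.05 with a lower level was found for 1.34% and 0.930%, respectively. In the 207 genes with 2 or more sites the median was −0.00. The length difference between the classes was not adjusted for, and a match is a description of letters, not a site of action.

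The difference between the miRNAs at 6 h was set beside that at 5 d, measured in 16 further libraries. In one edgeR fit of all 32 libraries, 0 of 20425 genes differed between 5 d and 6 h in the effect of miR-92a-1-5p against miR-124-5p (417 at an unadjusted p under 0.05), and the 5 d comparison itself gave 0 genes in either direction (673 at an unadjusted p under 0.05). The cytokine list had a median log2 fold change of −0.30 at 5 d against 0.76 at 6 h, and the chemokine list of −0.40 against 0.34. *Il1a* lay at −0.97 ± 0.54 and *Il1b* at −0.30 ± 0.58 at 5 d. The interaction term, 6 h minus 5 d, was 2.12 ± 0.68 for *Il1a* and 1.22 ± 0.70 for *Il1b*, and neither passed the adjusted threshold in edgeR (adjusted p = 1.00 for each). *Gm23935* lay at −0.37 ± 0.24 at 5 d.

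Neuronal markers were abundant, as the labelled cell type requires, and their sums overlapped between the groups. The 10 general neuron markers summed to 8866 to 9842 CPM after miR-92a-1-5p and to 9322 to 9825 CPM after miR-124-5p, with *Tubb3* at −0.09 ± 0.06 and *Stmn2* at −0.05 ± 0.05. Excitatory and interneuron markers had medians of 0.00 and 0.02, with *Emx1* at −0.13 ± 0.06, *Cux2* at 0.13 ± 0.07, *Neurod1* at 0.18 ± 0.09 and *Gad2* at 0.08 ± 0.05. Of the other cell types, the 11 astrocyte markers summed to 498 to 774 and 416 to 789 CPM, the 10 oligodendrocyte lineage markers to 188 to 306 and 135 to 314 CPM, and the 14 vascular and mesenchymal markers to 37.9 to 138 and 34.2 to 136 CPM, with miR-92a-1-5p given first in each pair. Their medians were 0.09, 0.04 and 0.23. *Gja1* lay at 0.21 ± 0.29, *S100b* at −0.61 ± 0.49, *Pdgfrb* at 0.23 ± 0.20 and *Tagln* at 0.49 ± 0.39. No marker of these lists had an unadjusted p under 0.05 without batch (1.11% of all genes in the higher direction). With batch, 3 of the 12 excitatory neuron markers had one with a higher level (2.67% of all genes) and 1 with a lower level (2.56% of all genes), *Cux2* (0.19 ± 0.06) and *Neurod1* (0.17 ± 0.07) among the former, and 1 of the 13 vascular markers tested had one with a higher level. Both *Cux2* and *Neurod1* had an edgeR adjusted p of 0.946 with batch. The *Cux2* libraries of the miRNAs did not overlap (1.05% of all genes), at 148.2 to 150.1 CPM after miR-92a-1-5p against 119.6 to 147.7 CPM. In all of these lists, each summed level overlapped between the miRNAs.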

How the data were processed

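RNA-seq was analysed from mouse cortical neurons at 6 h. The deposited values are raw read counts per gene for 49671 genes in 32 libraries. According to the study's methods and the submitters' processing notes, the authors made them with STAR and featureCounts (Subread) on GRCm38 from libraries of a stranded mRNA kit, with reads counted over exons at the reverse-strand setting. Symbols, coordinates and 3′ untranslated regions came from GENCODE (GRCm38) for 49412 gene IDs, and the miRNA sequence from RefSeq.

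A minimum of 5 counts in 3 or more of the 16 libraries of 6 h was required of each gene tested with edgeR 4.0.16 (quasi-likelihood test, TMM normalization, all 4 groups in 1 fit without covariate, Benjamini-Hochberg adjustment over all genes tested) in R 4.3.3. Every p and interval without another name comes from this fit, and ± after a log2 fold change is its SE. Calls needed a log2 fold change beyond 0.5 and an adjusted p under 0.05. CPM values are counts over the library total, and differences within batches used TMM-scaled log2 CPM with a prior count of 2, which shrinks low genes. Alternatives were experiment batch as a covariate (also without untreated libraries and in the shared batches alone), DESeq2 1.42.0, other filters and scaling, and leaving out each replicate. Batch fits with a replicate left out were added after seeing the data. The statistical code was tested on simulated data.

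The libraries compared and the gene lists were chosen with earlier results of these data known. Named genes were, for each direction, up to 10 past the threshold and up to 8 past it with batch, the 8 with the smallest p whose groups did not overlap, the genes the study measured by RT-qPCR or taken as named by it at 6 h (*Il1b* and *Cybb* are in that list but not in the study's text), the miRNA host genes, and up to 4 members of every other list by p, not all of which are printed. The members given by rank in a list were chosen on this contrast. *Tlr7*, *C1qa*, *C1qb*, *Lif* and the genes grouped with *Gm23935* lie outside these rules and were named after their values were seen. Counting errors cover counting only. Replicate numbers do not pair the libraries, since same-numbered libraries deviated together in 2 pairs and apart in the other 2. P-values measure the spread between these samples.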

Additional observations from a re-analysis of the deposited data

Results flagged for a closer look

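A library far from the other 3 of its group was found in 15 of 232 groups of 4 values examined, against about 1 in 20 by chance; the gap to the nearest library, divided by the range of the group and given here as a ratio, exceeded Dixon's 95% critical value for 4 values. Replicate 2 of miR-124-5p was the high library for *Nr4a2* (ratio 0.890, 73.7 CPM), *Rgs4* (0.867, 201 CPM), *C2cd4a* (0.858, 0.787 CPM) and *Gm14303* (0.852, 8.83 CPM). Replicate 1 of miR-124-5p, of the second shared batch, was the high library for *C1qb* (0.952, 7.05 CPM), *Nfkbia* (0.943, 19.4 CPM), *Nfkbiz* (0.857, 4.46 CPM) and *Rela* (0.830, 31.3 CPM). Its same-batch partner, miR-92a-1-5p replicate 3, was likewise the high library for *Nfkbiz* (0.874, 5.15 CPM). Replicate 4 of miR-92a-1-5p, the deepest library, stood out for *Pclaf* (0.872, 30.9 CPM) and *Bdnf* (0.852, 12.8 CPM). It shares its batch with untreated replicate 2, the highest untreated library for both genes (34.2 and 23.6 CPM). Replicate 1 of miR-92a-1-5p stood out for *Mir124-2hg* (0.893, 48.4 CPM) and, as the low library, for *Aspn* (0.831, 0.0275 CPM). *Gm26771* was detected in miR-124-5p replicate 3 alone of its group (1.00, 0.0250 CPM). The summed level of the miRNA processing and Argonaute genes had a low miR-124-5p library (0.890). What sets these libraries apart was not tested.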

How the results depend on the processing

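With all 8 libraries, 0 genes were called in either direction with batch as a covariate (16 or 12 libraries), a replicate block, the 8 libraries alone, DESeq2, other size factors, no filter and a stricter filter. Calls appeared in the shared batches alone (1 higher and 2 lower), in DESeq2 with batch (1 lower) and on leaving out libraries. Leaving out 1 replicate gave 0 higher and 0 to 4 lower genes, with and without batch. Without miR-92a-1-5p replicate 1, 4 genes were called lower in each fit, *Lars2*, *Gm23935* and *Mir6236* in both, *Gm15564* only without batch and *Gm26917* only with it. With batch, 1 gene (*Gm23935*) was called without miR-124-5p replicate 2. Leaving out libraries with batch was chosen after seeing the data. The replicate block, with numbers that do not pair the libraries (correlations −0.40, 0.53, 0.23 and −0.24), left 374 genes at an unadjusted p under 0.05 against 413, and 0 genes past the threshold in either direction. Some log2 fold changes close to 0 turned sign. With batch, batch without untreated libraries, shared batches alone and DESeq2 with batch, respectively, *Sarm1* was 0.046, 0.070, 0.048 and 0.048, *Ticam1* was −0.059, −0.028, −0.12 and −0.046, *Tlr7* was −0.053, −0.17, −0.29 and −0.052, *Mir124a-1hg* was 0.0060, 0.025, 0.24 and 0.0084, *Mir124-2hg* was 0.022, 0.0045, 0.15 and 0.023. *Irf7* was 0.034 with batch, 0.13 without untreated libraries, 0.0076 with the block and 0.041 in DESeq2 with batch, and *Mir17hg* was 0.40 in the shared batches alone. On leaving out replicates, without and with batch, the ranges were −0.28 to 0.020 for *Cacng5*, −0.071 to 0.067 for *Sarm1*, −0.14 to 0.031 for *Rela*, −0.16 to 0.10 for *Ticam1*, −0.20 to 0.39 for *Irf7*, −0.24 to 0.18 for *Mir124a-1hg*, −0.33 to 0.32 for *Mir17hg*, −0.092 to 0.11 for *Mir124-2hg*, −0.55 to 0.084 for *CT010467.1*, −0.16 to 0.20 for *Tlr7*. The cytokine median ranged from 0.30 (at least 10 counts in every library) to 1.27 (batch, without miR-124-5p replicate 1), and the median of the list of genes taken as named by the study at 6 h was −0.27 with the former filter. The causes were not tested. Depth limits genes below 1 CPM most.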
